A study of Ovis aries with 12 samples.

Results

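The genes described here are the enzymes that break glucose down to pyruvate, remake glucose from smaller molecules, and store or release it as glycogen. The set was a list of 40 named genes, chosen by their function but with earlier results of these data known. A gene was a member where at least 1 deposited transcript could be paired with it. A row was found for 29 of the 40, among 10771 genes with a paired transcript, and 28 of the 29 passed the filter on low values, among 8676 genes tested. The 11 listed genes without a paired row, PFKL, PFKP, FBP2, TPI1, PGAM1, LDHA, LDHB, PDHB, PC, G6PC3 and PFKFB2, were not analysed here. PCK1, which makes phosphoenolpyruvate in the cytosol, had a row but a mean of 0.0507 FPKM and was not tested.

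RNA was sequenced from the oviduct isthmus, the narrow muscular segment next to the uterus, of 12 Small-Tailed Han ewes aged 2.5 ± 0.5 years. Ewes homozygous for the fecundity allele (FecB BB) formed the groups MF (follicular phase) and ML (luteal phase), and wild-type ewes (FecB ++) formed wF (follicular) and wL (luteal), with 3 ewes in each. These genotypes are those of the sample titles and the design text, and 1 legend of the study gives them the other way round. All 12 ewes, the wild-type controls included, had carried an intravaginal device with 300 mg of progesterone for 12 days. Tissue was taken 45 to 48 h after its removal in the follicular groups and on day 9 in the luteal groups. Every library is thus from a hormonally synchronised ewe, and no group had a natural cycle. The values are FPKM, in which fragments are divided by transcript length in kilobases and by the number of fragments mapped. They were summed over the paired transcripts of a gene. Levels of different genes can be set side by side per length for those transcripts only, because a sum may miss other transcripts of its gene.

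Glycolysis begins with hexokinase, which traps glucose as glucose 6-phosphate, and ends with pyruvate kinase, with a pair of ATP-yielding steps on the way. Glucose 6-phosphate can also enter the pentose phosphate pathway or, by way of phosphoglucomutase and UDP-glucose, glycogen, and the pyruvate dehydrogenase complex and its inhibitory kinases set how much pyruvate enters mitochondria. Several steps are served by paralogs with different tissue patterns, such as the muscle forms PFKM and PYGM and the neuronal enolase ENO2. In the mammalian oviduct, the epithelium secretes a fluid that holds glucose, pyruvate and lactate, which the early embryo uses.

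The FPKM sum of a library was highest in MF (423993 to 456531) and lowest in ML (349733 to 371526), and wF (409016 to 432223) and wL (379288 to 421341) lay between or overlapped them. Read counts per gene were not used here, so the precision that depth gives to single values is not known. Smooth muscle markers, of which 8 of 12 listed had a row and none was at 0, summed to 489.7 to 1621 FPKM in MF, 1079 to 7217 FPKM in ML, 1525 to 6525 FPKM in wF and 596.7 to 3626 FPKM in wL. ML2, ML3, wF2 and wL2 had the 4 highest smooth muscle scores, and these libraries had the 4 lowest sums over the ciliated cell markers (45.3 to 259.2 FPKM, against 442 to 927.1 in the other 8), of which 9 of 14 had a row and SPAG6 was at 0 in ML3. Of the secretory epithelium markers only EPCAM and KRT8, 2 of 10, had a row. The others listed, OVGP1 and PAX8 among them, had none, so secretory cells could not be told apart from other epithelium. Fibroblast markers (6 of 9 with a row) summed to 638.7 to 4461 FPKM over the 12 libraries, endothelial markers (4 of 7) to 53.1 to 107 FPKM, leukocyte markers (8 of 11) to 11.8 to 40.7 FPKM, and red blood cell markers (2 of 6) to at most 0.777 FPKM. In bulk tissue, fewer cells of a type and less RNA per cell cannot be told apart.

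The means of the 29 genes ran from 0.0507 to 330.2 FPKM, and together the genes took 0.222 to 0.334% of the mRNA FPKM of a library. GAPDH, which oxidises glyceraldehyde 3-phosphate, had the highest mean level over the 12 libraries (330.2 FPKM), followed by the enolase ENO1 (198 FPKM), the pyruvate kinase PKM (104 FPKM), the liver-type glycogen phosphorylase PYGL (65 FPKM), PGK1 (53.4 FPKM) and the pyruvate dehydrogenase kinase PDK4 (52.4 FPKM). At the low end of the tested genes stood HK2 (1.21 FPKM), PCK2 (2.09 FPKM) and ALDOC (2.1 FPKM). The spread over libraries was narrowest for UGP2, which makes UDP-glucose, at 30 to 41.3 FPKM, and for HK1, DLAT and PDK1, whose highest library was at most 1.68 times the lowest. PFKFB3 (1.25 to 20.7 FPKM), HK2 (0.251 to 3.37 FPKM), PDK4 (10.1 to 130.1 FPKM) and FBP1 (1.8 to 21.9 FPKM) varied most, each by more than 12-fold.

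**Figure D1:**
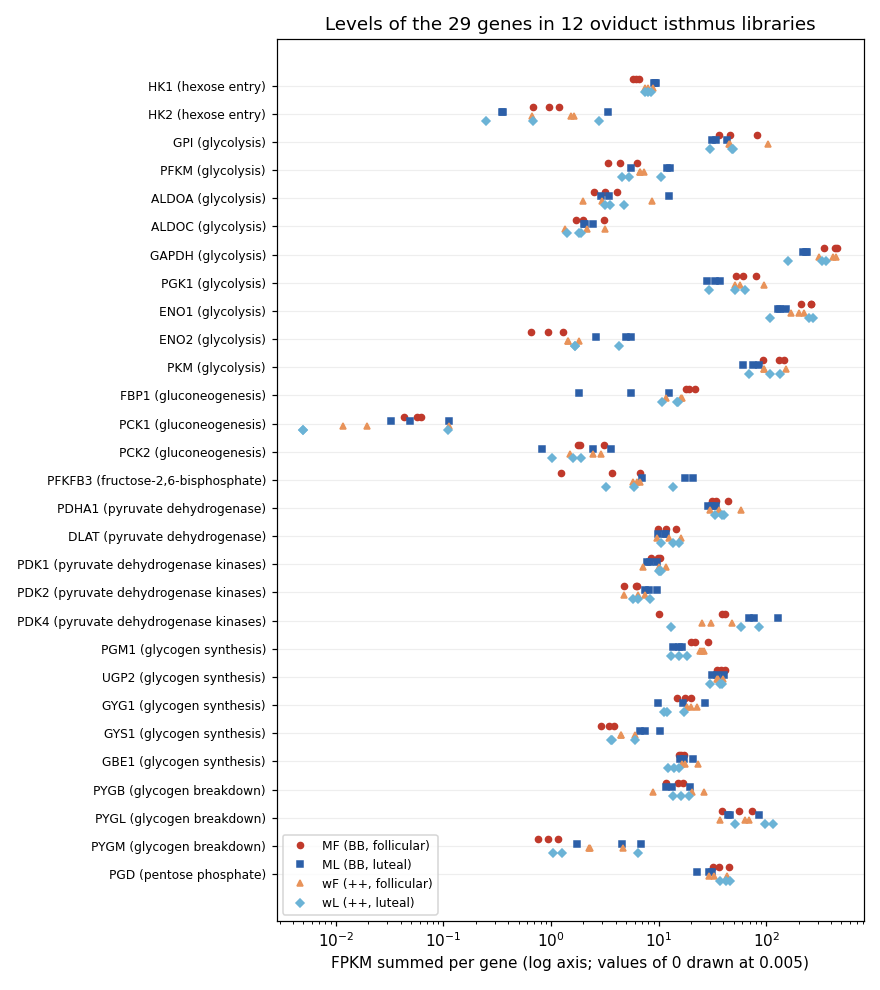
FPKM of the 29 genes with a row, in pathway order, on a logarithmic axis, with 1 symbol per library and a shape and colour for each group. GAPDH and ENO1 lie furthest right in every library. PKM comes next except in ML1, ML3 and wL2, where PDK4 is higher. PCK1 lies at the left, with 0 FPKM in wL1 and wL3.

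GAPDH is also the gene to which the study's RT-qPCR was normalised, so its primers are shown here. They come from the study's primer sheet, which names the same transcript as the deposited row (NM_001190390.1).
GAPDH forward primer: caggagcacgagaggaagagaga
GAPDH reverse primer: cagggccttgaggatggaaatgt

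In FecB BB ewes, 2 of the 28 genes were lower in follicular than in luteal libraries, the neuronal enolase ENO2 and the glycogen synthase GYS1, and none was higher. A gene was called when its adjusted p was under 0.05 and its log2 change at least 1 in size, and by the same rule 1.73% of all tested genes were called in MF against ML, and 0.576% of all tested genes were called lower. Below that threshold the glycolytic enzymes of highest level, GAPDH, ENO1, PKM and PGK1, and the gluconeogenic FBP1 had higher values in every MF than in every ML library. The muscle phosphorylase PYGM, the regulatory kinases PFKFB3, PDK2 and PDK4, and the hexokinase HK1 had lower values in every MF library.

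ENO2 (transcript XM_012175500.2) makes phosphoenolpyruvate, as ENO1 does. It measured 0.929, 0.647 and 1.28 FPKM in MF1, MF2 and MF3, and 2.63, 5.54 and 4.93 FPKM in ML1, ML2 and ML3. In the FecB ++ ewes it measured 1.43, 1.82 and 1.44 FPKM in wF1 to wF3 and 1.68, 4.31 and 1.68 FPKM in wL1 to wL3. All MF libraries lay below all ML libraries, while wF and wL overlapped and only wL2 reached the level of ML. The difference of MF from ML was -2.06 on the log2(FPKM + 0.1) scale (SE 0.43, limma, adjusted p = 0.046), and that of wF from wL was -0.54 (adjusted p = 0.745). Leaving out ML2, ML3, wF2 and wL2, the libraries of highest smooth muscle score, left ML1 alone in ML. The MF against ML difference of ENO2 was then -1.42, which rests on ML1 for the luteal side. In a fit with that score as covariate it was -1.27 (adjusted p = 0.152), so the call was lost. It was also lost without MF1, MF2, ML2 or ML3, at adjusted p = 0.143, 0.181, 0.091 and 0.114.

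GYS1 (XM_004015797.3), the glycogen synthase of tissues outside the liver, measured 3.46, 2.89 and 3.86 FPKM in MF1 to MF3 and 6.75, 7.47 and 10.3 FPKM in ML1 to ML3. Its values were 4.51, 6.03 and 4.48 FPKM in wF1 to wF3 and 3.66, 6.05 and 3.57 FPKM in wL1 to wL3. ML stood above every other library, MF (2.89 to 3.86 FPKM) lay below wF (4.48 to 6.03 FPKM), and wL (3.57 to 6.05 FPKM) overlapped both. Its MF against ML difference was -1.22 (SE 0.27, adjusted p = 0.049), a call that ended when any 1 of the 6 MF and ML libraries was left out (adjusted p = 0.057 to 0.183). It was -0.98 without the 4 libraries of highest smooth muscle score, with ML1 alone left in ML. With that score as a covariate it was -0.74 (adjusted p = 0.164). GYS1 also had the smallest unadjusted p among the 28 genes for the difference between genotypes in the luteal phase (ML against wL, 0.89, adjusted p = 0.38) and for the interaction of phase and genotype (-1.43, SE 0.38, adjusted p = 0.375), neither of which passed (0.56 and -0.70 in the fit with the score).

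In all, 15 of the 28 genes (53.6%) reached an unadjusted p under 0.05 for MF against ML, 7 higher and 8 lower, where 25.5% of all tested genes did. Groups did not overlap for 14 genes, 7 higher and 7 lower in MF, and 30.8% of all tested genes did not overlap, 16.5% higher and 14.4% lower. The median log2 difference of the 28 genes was 0.09, beside 0.06 over all tested genes. When the libraries were rescaled to equal FPKM sums, the median of all genes moved to -0.22, and the genes without overlap were then 4 higher (ENO1, FBP1, GAPDH and PGK1) and 9 lower in MF, beside 7.17% and 26.1% of all genes. PGD, PGM1 and PKM, higher as deposited, overlapped after that rescaling, so the direction of the small differences depends on the scaling.

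**Figure D2:**
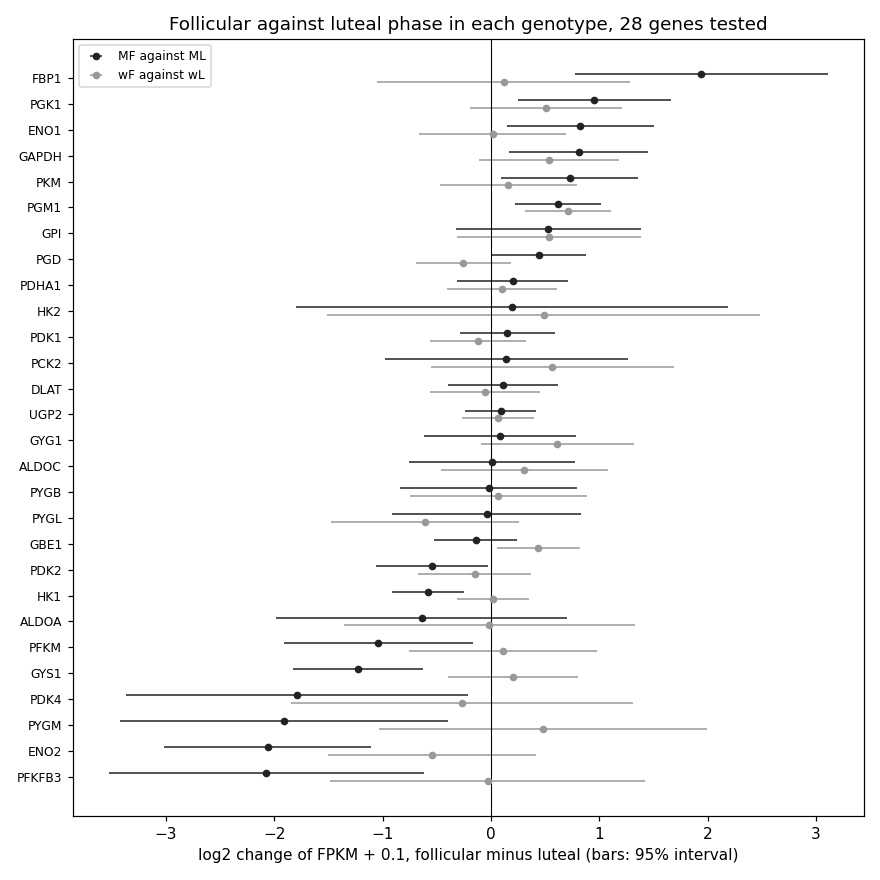
Follicular minus luteal difference of the 28 tested genes on the log2(FPKM + 0.1) scale, with 95% intervals, in FecB BB ewes (black) and FecB ++ ewes (grey). Genes are ordered by the FecB BB difference, from FBP1 at 1.94 to PFKFB3 at -2.08, and for these genes the grey points, 0.12 and -0.03, lie near 0.

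Among the hexokinases, HK1 measured 6.58, 5.74 and 6.19 FPKM in MF1 to MF3 and 9.06, 9.25 and 9.47 FPKM in ML1 to ML3. In wF it measured 7.99, 8.86 and 7.51 FPKM and in wL 7.52, 7.95 and 8.57 FPKM. MF was the lowest and ML the highest group, neither overlapping any other, and both groups varied little. HK1 differed by -0.58 between MF and ML (SE 0.15, adjusted p = 0.066), by -0.39 between MF and wF (adjusted p = 0.997) and by 0.02 between wF and wL (adjusted p = 0.977). After rescaling to equal FPKM sums its MF against ML difference was -0.87 (adjusted p = 0.024), which passed the adjusted p but not the fold limit. HK2, the insulin-responsive hexokinase of muscle, ranged from 0.251 FPKM in wL2 to 3.37 FPKM in ML1, with an interval of the MF against ML difference from -1.80 to 2.19.

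The abundant glycolytic enzymes shared a direction in FecB BB ewes. GAPDH (NM_001190390.1) measured 454, 435 and 346 FPKM in MF1 to MF3 and 237, 221 and 241 FPKM in ML1 to ML3. In wF1 to wF3 it measured 450.0, 418 and 309 FPKM, and in wL1 to wL3 332, 159 and 361 FPKM. Each MF library was above each ML library, wF and wL overlapped, and the lowest value of all was that of wL2. The GAPDH difference was 0.81 (SE 0.29, adjusted p = 0.131) in MF against ML, 0.54 (adjusted p = 0.63) in wF against wL and 0.67 (SE 0.21, adjusted p = 0.112) with the genotypes pooled.

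PGK1, the kinase that makes the first ATP of glycolysis, measured 80.6, 60.3 and 52.8 FPKM in MF and 33.6, 37.2 and 28.1 FPKM in ML. Its values were 56.7, 96.1 and 50.8 FPKM in wF and 51.5, 29.5 and 63.5 FPKM in wL. MF was above ML throughout (0.95, SE 0.32, adjusted p = 0.111), and in the FecB ++ ewes wL1 and wL3 fell within the range of wF. ENO1 measured 261, 262 and 209 FPKM in MF and 152, 127 and 133 FPKM in ML, without overlap (0.82, SE 0.31, adjusted p = 0.14). In wF ENO1 measured 201, 226 and 170.0 FPKM and in wL 252, 108 and 272 FPKM, a wide overlap with a difference of 0.02 (SE 0.31). PKM measured 146, 131 and 94 FPKM in MF and 86.6, 75.4 and 60.8 FPKM in ML, a gap of 0.73 (SE 0.29, adjusted p = 0.152), and 96.3, 153 and 95.6 FPKM in wF and 133, 69.4 and 109 FPKM in wL, which overlapped. The MF against ML differences of GAPDH, ENO1 and PKM were smaller but still upward after quantile normalisation (0.45, 0.42 and 0.40), after rescaling to equal FPKM sums (0.52, 0.53 and 0.43) and in the fit with the smooth muscle score (0.45, 0.41 and 0.48). Without the 4 libraries of highest score, with ML1 alone left in ML, the pooled phase differences of GAPDH and PGK1 were 0.45 and 0.41.

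The remaining glycolytic genes were less regular. PFKM, the muscle phosphofructokinase, measured 3.41 to 6.28 FPKM in MF and 5.57 to 12.7 FPKM in ML (-1.04, SE 0.39, adjusted p = 0.144), and its level was highest in the 4 libraries of highest smooth muscle score (7.35 to 12.7 FPKM, against 3.41 to 6.65 FPKM in the other 8). Its MF against ML difference was -0.28 without those 4 libraries, with ML1 alone left in ML. In the fit with the score it was -0.36 (adjusted p = 0.614). GPI, the isomerase of the second step, ranged from 29.8 to 104.5 FPKM, with MF against ML at 0.53 (SE 0.38, adjusted p = 0.398). ALDOA (1.97 to 12.5 FPKM) and ALDOC (1.35 to 3.2 FPKM), paralogous aldolases, overlapped between MF and ML and between wF and wL. Of ALDOA, 2 of the 5 transcripts in the reference were paired, and the aldolase level here is that of those rows alone.

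Of the gluconeogenic genes, FBP1, which removes a phosphate from fructose 1,6-bisphosphate, showed the widest phase difference upward. It measured 21.9, 19.2 and 17.9 FPKM in MF1 to MF3 and 12.4, 5.53 and 1.8 FPKM in ML1 to ML3. In the FecB ++ ewes the values were 16, 16.5 and 11.7 FPKM in wF and 15.1, 10.8 and 14.8 FPKM in wL. MF was above all other groups, ML1 was near the lower values of FecB ++ ewes, and ML2 and ML3 fell below every other library. The MF against ML difference was 1.94 (SE 0.52, adjusted p = 0.072), it passed only when ML1 was left out (2.59, adjusted p = 0.029), and it was 1.23 (adjusted p = 0.124) without ML3. It was 1.27 (adjusted p = 0.307) in the fit with the smooth muscle score. Without the 4 libraries where that score was highest, with ML1 alone left in ML, it was 0.66. ML2 and ML3, the libraries of lowest FBP1, were also those of lowest EPCAM plus KRT8 sum in ML (261.6 and 97.7 FPKM), and the part of cell make-up in the difference was not tested. PCK2, the mitochondrial counterpart of PCK1, ranged from 0.827 to 3.62 FPKM and overlapped between phases in both genotypes.

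PFKFB3 makes fructose 2,6-bisphosphate, an activator of phosphofructokinase. It measured 1.25, 3.7 and 6.73 FPKM in MF and 20.7, 17.6 and 7.03 FPKM in ML, and 6.67, 5.84 and 6.24 FPKM in wF and 5.86, 13.6 and 3.22 FPKM in wL. The MF and ML ranges only just parted, at 6.73 and 7.03 FPKM, and its difference had a large error (-2.08, SE 0.66, adjusted p = 0.099). The level came from 2 paired transcripts, of 5 in the reference, and XM_015099532.1 carried 61.4% and XM_015099534.1 38.6% of their summed mean. The less abundant one differed by -1.52 (SE 0.44) and the other by -2.41 (SE 1.37) between MF and ML, and neither passed over all mRNA transcripts (adjusted p = 0.137 and 0.377).

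**Figure D3:**
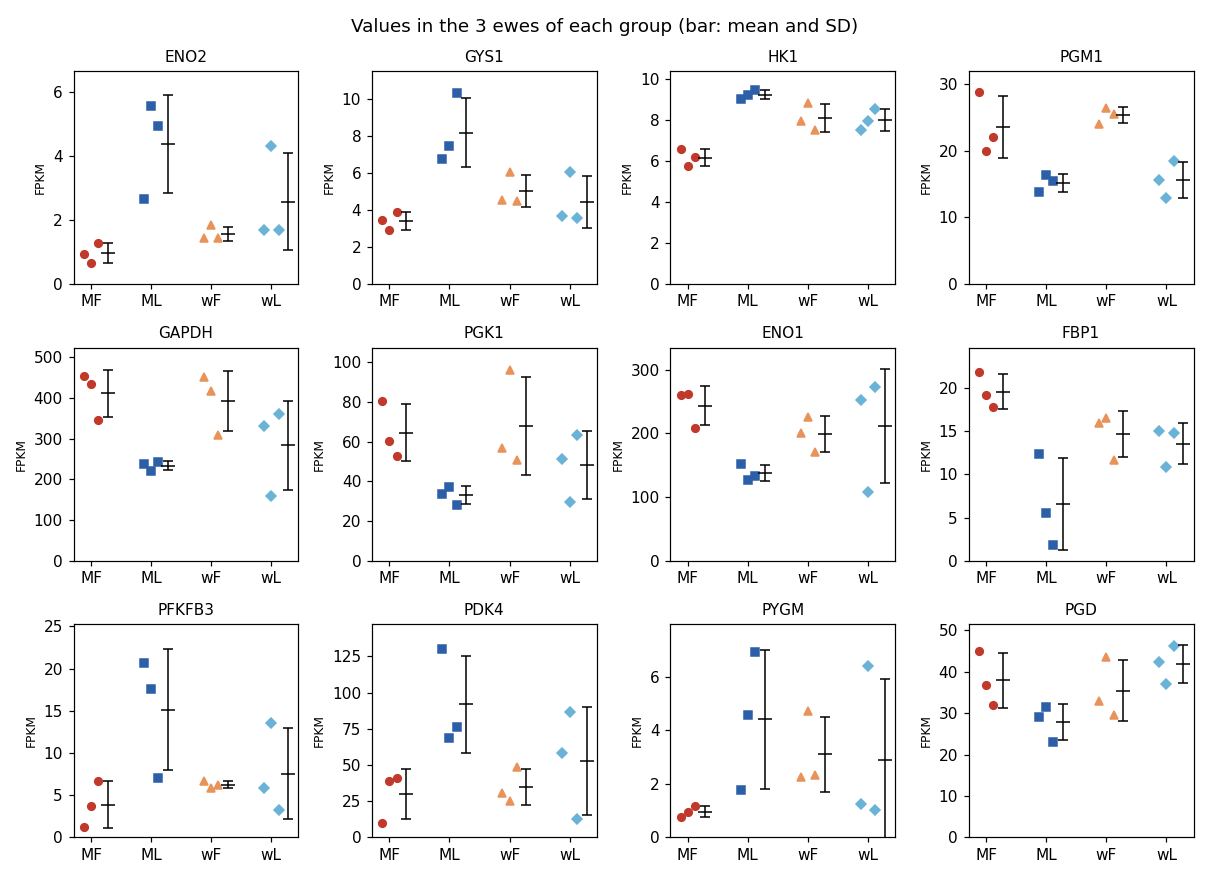
FPKM of 12 of the genes in each library, with the group mean and SD (n = 3 ewes) to the right of the points, on axes that start at 0 (the SD bar of PYGM in wL is cut there). The group means of ENO2, GYS1 and HK1 are highest in ML and lowest in MF, PGM1 is higher in both follicular groups than in both luteal groups, and wL2 stands apart from wL1 and wL3 in several panels.

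Pyruvate dehydrogenase kinases phosphorylate and switch off the pyruvate dehydrogenase complex. PDK4, known for its induction on fasting in other mammals, measured 10.1, 39 and 41.2 FPKM in MF and 130.1, 68.9 and 76.5 FPKM in ML. In FecB ++ ewes it measured 30.7, 25.3 and 48.6 FPKM in wF and 58.5, 86.7 and 13 FPKM in wL. ML exceeded MF in each library (-1.80, SE 0.71, adjusted p = 0.156, and -1.14, adjusted p = 0.401, without MF1), whereas wL held both high values and 1 of the lowest. PDK2 followed the same direction in MF against ML (4.75 to 6.35 against 7.44 to 9.75 FPKM, -0.55, adjusted p = 0.181), and PDK1 did not (8.52 to 10.2 against 7.8 to 9.65 FPKM, 0.15, interval -0.29 to 0.59). The complex's own subunits varied little. PDHA1, its catalytic alpha subunit, measured 44, 31.3 and 34.1 FPKM in MF, 29.1, 33.8 and 31.4 FPKM in ML, 36.4, 58.4 and 30.3 FPKM in wF and 39.1, 33.2 and 40.2 FPKM in wL, and DLAT, its acetyltransferase core, 9.64 to 16.2 FPKM over all libraries. All groups overlapped for DLAT, and PDHA1 overlapped between phases within each genotype.

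PGM1, which interconverts glucose 1-phosphate and glucose 6-phosphate, had a higher mean in the follicular phase in both genotypes. It measured 28.8, 19.9 and 22 FPKM in MF, 24, 26.4 and 25.6 FPKM in wF, 13.7, 16.3 and 15.4 FPKM in ML, and 15.5, 12.9 and 18.4 FPKM in wL. All 6 follicular libraries lay above all 6 luteal libraries, which was so for 0.864% of all tested genes in that direction. The difference was 0.62 (SE 0.18, adjusted p = 0.084) in MF against ML and 0.71 (SE 0.18, adjusted p = 0.462) in wF against wL. With genotypes pooled it was 0.66 (SE 0.13, adjusted p = 0.039), past the adjusted p and short of the fold limit. It no longer passed without 11 of the 12 libraries in turn (adjusted p = 0.053 to 0.096), and it passed only without wL3. Nor did it pass after rescaling to equal FPKM sums (0.47, adjusted p = 0.051), where the phases also overlapped. Without the 4 libraries of highest smooth muscle score, with ML1 alone left in ML, the pooled difference was 0.65.

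The other genes of glycogen synthesis did not share that pattern. GYG1, the protein primer of glycogen, measured 15, 17.8 and 20.1 FPKM in MF and 9.9, 16.9 and 26.7 FPKM in ML, a complete overlap, and 19.8, 22.8 and 18.4 FPKM in wF and 12.1, 11.1 and 17.2 FPKM in wL, with none (0.61, SE 0.32, adjusted p = 0.608). GBE1, the branching enzyme, measured 17.2, 15.4 and 16.2 FPKM in MF, 15.9, 17.4 and 20.9 FPKM in ML, 16.6, 23.1 and 17.4 FPKM in wF and 13.8, 12.3 and 15.6 FPKM in wL. Its follicular libraries were above the luteal ones in FecB ++ ewes (0.44, SE 0.17, adjusted p = 0.509) and overlapped them in FecB BB ewes (-0.14, SE 0.17). UGP2 differed by 0.09 between MF and ML, with an interval from -0.24 to 0.42.

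Glycogen phosphorylases release glucose 1-phosphate from glycogen. The muscle form PYGM measured 0.763, 0.945 and 1.17 FPKM in MF and 1.75, 4.55 and 6.93 FPKM in ML, and 2.27, 4.7 and 2.31 FPKM in wF and 1.26, 6.39 and 1.04 FPKM in wL. MF was below ML and below wF without overlap, but wF2 and wL2 were as high as ML2 and ML3. The MF against ML difference was -1.91 (SE 0.68, adjusted p = 0.131) and that of MF from wF was -1.53 (SE 0.68, adjusted p = 0.997). In the fit with the smooth muscle score they were -0.53 (adjusted p = 0.549) and -0.39 (adjusted p = 0.999). Without the 4 libraries of highest score, with ML1 alone left in ML, the MF against ML difference was -0.82. PYGL measured 39.1, 55.8 and 73.7 FPKM in MF, 86.2, 45.8 and 44.2 FPKM in ML, 68.6, 37 and 64.1 FPKM in wF and 116, 51.5 and 97.3 FPKM in wL. It overlapped in every pair of groups, at -0.04 (interval -0.91 to 0.83) in MF against ML, and PYGB, the brain form, ranged from 8.83 to 26.7 FPKM with a difference of -0.02.

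PGD, the 6-phosphogluconate dehydrogenase and the only listed gene of the pentose phosphate pathway, measured 45.1, 36.7 and 32.1 FPKM in MF and 29.1, 31.5 and 23 FPKM in ML. In wF it measured 33, 43.6 and 29.6 FPKM and in wL 42.3, 37.1 and 46.2 FPKM. ML was below MF and below wL without overlap, and wF and wL overlapped. The PGD difference was 0.44 (SE 0.20, adjusted p = 0.192) in MF against ML (0.15 after rescaling to equal FPKM sums), -0.25 (SE 0.20, adjusted p = 0.737) in wF against wL and -0.59 (SE 0.20, adjusted p = 0.38) in ML against wL (-0.39 after quantile normalisation).

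Levels of PYGM, PFKM and HK2 separated the 4 libraries of highest smooth muscle score from the other 8. PYGM was higher in those 4 (4.55 to 6.93 against 0.763 to 2.31 FPKM), as was PFKM, and HK2 was lower (0.251 to 0.66 against 0.68 to 3.37 FPKM). Over all tested genes 5.37% were above and 6.57% below in that sense, so 2 and 1 of 28 are shares near those of genes in general. Skeletal muscle markers, of which 4 of 9 had a row, summed to 1.94 to 9.83 FPKM in MF, 3.74 to 28.1 FPKM in ML, 8.74 to 79.5 FPKM in wF and 2.09 to 16.7 FPKM in wL. The highest sums were mostly ACTA1 (77.3 FPKM in wF2 and 22 FPKM in ML3). MB reached at most 6.05 FPKM and ATP2A1 at most 0.132 FPKM, and the creatine kinase CKM was at 0 in every library. Nerve and Schwann cell markers, 5 of 8 with a row, summed to 319.7 to 543.7 FPKM in MF, 4.88 to 103 FPKM in ML, 9.4 to 431.2 FPKM in wF and 10.9 to 219.6 FPKM in wL, nearly all of it S100B in MF, with the 4 lowest sums in ML2, ML3, wF2 and wL2. The part of cell make-up in the MF against ML differences, beyond the fits with the score or without those libraries, was not tested.

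**Figure D4:**
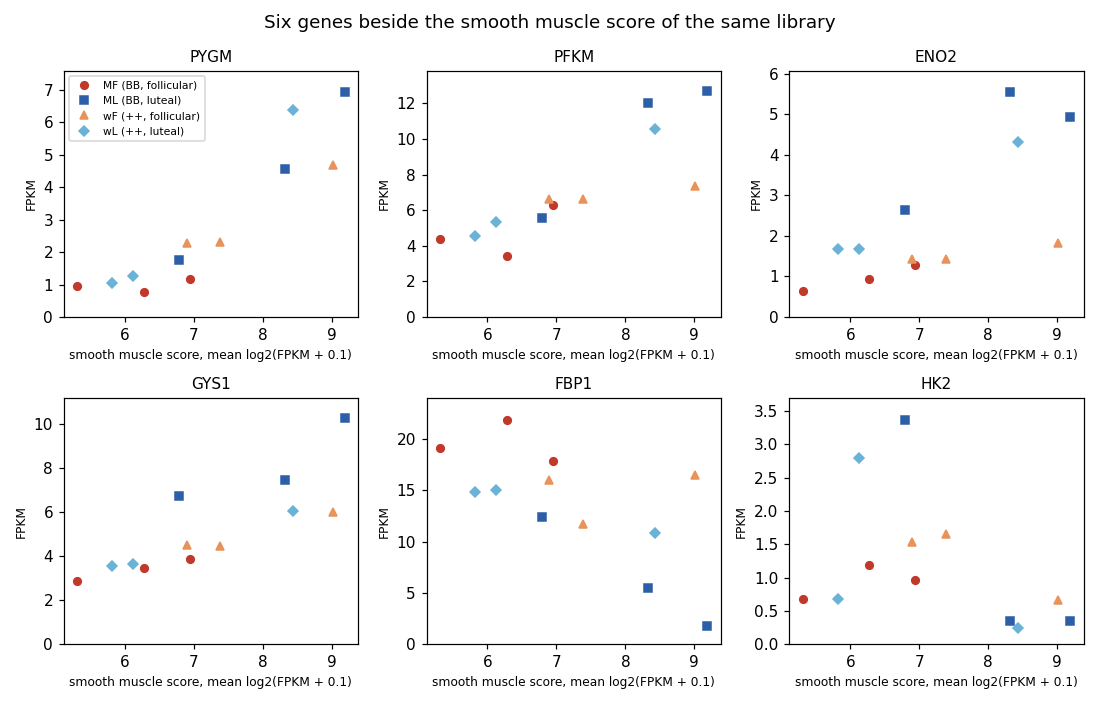
FPKM of 6 of the genes against the smooth muscle score of the same library (mean log2(FPKM + 0.1) of 8 marker genes), with 1 symbol per library in the colour of its group. The 4 libraries at the right are ML2, ML3, wF2 and wL2, where PYGM is 4.55 to 6.93 FPKM. GYS1 is higher in ML1, left of these, than in any library of another group.

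In FecB ++ ewes none of the 28 genes was called between phases, nor was any of the 8676 tested genes (0.0% called). At an unadjusted p under 0.05 stood 2 of the 28 genes, PGM1 and GBE1 (7.14%), where 8.79% of all tested genes did. Groups did not overlap for PGM1, GYG1 and GBE1, all higher in wF, and 4.31% of all tested genes were so in that direction. The median difference of the 28 genes was 0.11 and that of all tested genes -0.12. The comparison of the phase differences between the genotypes, the interaction, passed for none of the 28 genes (0.0115% of all tested genes called). By unadjusted p, 7 of the 28 genes were under 0.05 in it, where 13.0% of all tested genes were, namely GYS1, HK1, PGD, ENO2, PYGM, FBP1 and GBE1, each with an adjusted p of 0.375. The larger phase differences seen in FecB BB ewes are thus not shown to differ from those in FecB ++ ewes.

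With the genotypes pooled, no gene of the 28 was called between phases, beside 0.853% of all tested genes. PGM1 passed the adjusted p alone, as did 1.48% of all tested genes. ENO2 came next at -1.30 (SE 0.31, adjusted p = 0.066), followed by GAPDH and by PGK1 at 0.73 (SE 0.22, adjusted p = 0.113). Without the 4 libraries of highest smooth muscle score, with ML1 alone left in ML, the ENO2 difference shrank to -0.82. Rescaled to equal FPKM sums, or fitted with the smooth muscle score, ENO2 was called in this comparison (-1.48, adjusted p = 0.026, and -1.11, adjusted p = 0.03). By unadjusted p, 8 of the 28 genes were under 0.05 (28.6%), beside 20.0% of all tested genes.

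Between genotypes no gene of the 28 was called, in either phase or with phases pooled. In MF against wF 0 of 28 were called (0.0231% of all tested genes called), and HK1 and PYGM had an unadjusted p under 0.05, as 3.15% of all genes did. FBP1 was higher in MF and ENO2, GYS1, HK1, PFKM and PYGM were lower without overlap, 6 of 28 beside 8.88% of all tested genes. No gene of the 28 was called in ML against wL (0.0% of all tested genes called). Of the 28, 3 were under an unadjusted p of 0.05 (GYS1, PGD, and FBP1 at -1.40), beside 13.1% of all genes. The FBP1 difference was -0.69 (adjusted p = 0.792) without ML3. Without the 4 libraries of highest smooth muscle score, with ML1 alone left in ML, it was -0.27. In this comparison 6 did not overlap, ALDOC, GBE1, GYS1 and HK1 higher and PDK1 and PGD lower in ML, beside 18.2%. With phases pooled none was called (0.0115% of all tested genes called) and none had an unadjusted p under 0.05, beside 3.19% of all tested genes, the smallest being those of PGD (-0.24), FBP1 (-0.49) and PDHA1 (-0.20), each at an adjusted p of 0.994. MF against ML and MF against wF share the MF libraries, and ML against wL shares ML and wL with the phase comparisons, so these values are not independent of each other.

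Ratios between paralogs in the same library cancel its scaling, apart from the 0.1 FPKM added to each gene, and 7 of 12 listed ratios could be taken. The ratio of ENO2 to ENO1 was lower in the follicular phase by 1.72 on the log2 scale, with ENO2 making 0.246 to 0.84% of their sum in follicular and 0.613 to 4.17% in luteal libraries (2-sided exact permutation p = 0.03 over 6 against 6 libraries, adjusted over the 7 ratios 0.205). With labels exchanged within genotype its exact p was 0.05 (adjusted 0.21). By genotype the ratio differed by -2.88 in MF against ML, without overlap (exact p = 0.1, the smallest that 3 against 3 libraries allow), and by -0.56 in wF against wL. The next smallest p was that of PDK1 to PDK2 (0.36 higher in the follicular phase, exact p = 0.058, adjusted 0.205). HK2/HK1, ALDOC/ALDOA, PDK4/PDK2, PYGM/PYGB and PYGL/PYGB had exact p of 0.175 to 0.353, and none of the 7 ratios passed after adjustment.

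**Figure D5:**
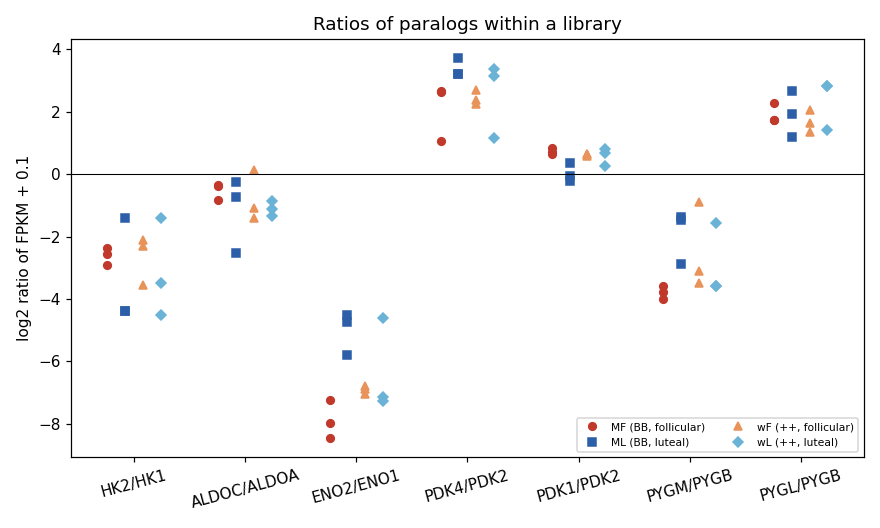
log2 ratio of FPKM + 0.1 of 7 pairs of paralogs in each library, with 1 symbol per library by group and a line where both genes have the same level. ENO2/ENO1 lies lowest in MF1 and MF2 and highest in ML and wL2, and PDK1/PDK2 is above 0 in every follicular library and in all luteal ones but ML1 and ML3.

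Of the single transcripts of these genes, 35 were tested among 31290 mRNA transcripts, and none was called in any of the 7 comparisons. Of all mRNA transcripts 0.272% were called in MF against ML, 0.00959% in wF against wL, 0.016% in MF against wF, 0.032% in ML against wL, 0.233% with genotypes pooled, 0.0128% with phases pooled and 0.016% for the interaction. The smallest adjusted p were 0.082 for ENO2 in MF against ML and 0.073 for PGM1 with genotypes pooled. Among the paired transcripts of PGM1, PKM and UGP2, a single one carried 95.5 to 99.3% of their summed mean level. For PDK2 1 of 4 paired transcripts carried 90.9%, and for ALDOA 1 of 2 carried 86.4%. The reference lists more transcripts of each of these genes than were paired, so the share of the whole gene is not known.

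Further genes of the same pathways were read from lists, with a row tested for 7 of 14 other glycolytic and gluconeogenic enzymes, 5 of 10 lactate and pyruvate dehydrogenase genes, 15 of 20 glycogen genes, 5 of 7 pentose phosphate genes, 8 of 14 glucose and lactate carriers and 6 of 15 regulators. A single gene in a single comparison passed, BSG (basigin), the partner protein of the lactate carriers, which was higher in MF than in ML by 1.26 (SE 0.26, adjusted p = 0.046). By the same rule 1.73% of all tested genes were called in MF against ML, and 1.15% of all tested genes were called higher. That call ended without any 1 of the 6 MF and ML libraries (adjusted p = 0.052 to 0.181), without the 4 libraries of highest smooth muscle score (1.02, adjusted p = 0.132) and with the score as a covariate (0.77, adjusted p = 0.139). Of the 15 other glycogen genes, 2 had a higher and 13 a lower mean in MF than in ML, none passed, and their median was -0.59, beside 0.06 over all tested genes. PGM5 of this list was 113 to 241 FPKM in ML2, ML3, wF2 and wL2 and at most 53.3 FPKM elsewhere. The part of cell make-up in the differences of this list was not tested. Among the regulators the smallest adjusted p was that of EPAS1, a hypoxia-inducible factor (-1.57, SE 0.37, adjusted p = 0.054).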

How the data were processed

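RNA of 12 libraries, 1 per ewe, was measured. The authors trimmed reads with fastp, aligned them to the sheep genome (Oar_v3.1) with HISAT2, assembled transcripts with StringTie and estimated FPKM, and the deposited table holds FPKM for 43674 mRNAs and 19969 lncRNAs. The unit corrects for transcript length and mapped fragments, and the counts behind single values were not used here, so their counting precision is not known. The tool that computed FPKM and versions are not given in the sources used here.

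Transcripts were paired with genes through a RefSeq annotation of a later assembly, of which 853 matched accession and version, 14336 the accession alone, and 13 mitochondrial rows the gene identifier. The 15202 paired transcripts are 34.8% of the mRNAs and 67.6% of their mean FPKM, so a gene sum may miss transcripts. Of the transcripts listed in that annotation, 1 of 13 was paired for PFKM, 1 of 6 for GAPDH and 1 of 3 for HK1. No coordinates were used, and promoter motifs were not searched.

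Gene sums were taken as log2(FPKM + 0.1), genes with a mean of at least 0.1 FPKM were kept, and limma 3.58.1 with a trend (R 4.3.3) was fitted to 4 group means over 12 libraries. Adjusted p (Benjamini and Hochberg, 2-sided) run over all tested genes, and called means adjusted p under 0.05 with a log2 change of at least 1 in either direction. Because the values are FPKM, no count test was used. Other steps used numpy 2.4.6, pandas 2.3.3, matplotlib 3.10.9 and scipy 1.17.1 under Python 3.11.15, and the fit was tested on simulated data. The error behind the limma p values is the spread between ewes within a group (3 ewes a group), estimated jointly over the 4 groups. It was also drawn toward a trend over all genes. The exact p of the ratios come from exchanging library labels.

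Values per library are given for genes called, for the 3 of smallest p in each of 7 comparisons and for the 6 of highest mean. PFKFB3 was added after its values were seen. The genes and lists were chosen with earlier results of these data known. Alternatives were no filter, a mean of at least 1 FPKM, an added value of 1, quantile normalisation, a replicate block, only the 6 libraries compared, and each library left out. Chosen after seeing the data were leaving out ML2, ML3, wF2 and wL2, the smooth muscle score as a covariate, equal FPKM sums, and leaving out the mitochondrial rows. Leaving out ML2, ML3, wF2 and wL2 left ML1 as the only ML library, so differences that use ML rest on it in that fit. Marker lists covered smooth muscle, ciliated cells, secretory epithelium, fibroblasts, endothelium, leukocytes, red blood cells, nerve and Schwann cells, and skeletal muscle.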

Additional observations from a re-analysis of the deposited data

Results flagged for a closer look

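Among the 6 libraries of a phase, a library was singled out when its gap to the next value took over 0.625 of the whole range. Of 56 groups looked at (28 genes in 2 phases) 3 met this, and chance gives about 1 in 20. ALDOA was 8.64 FPKM in wF2, where the other follicular libraries were 1.97 to 4.1 FPKM. ALDOA was 12.5 FPKM in ML3, where the other luteal libraries were 2.94 to 4.73 FPKM. GBE1 was 23.1 FPKM in wF2, where the other follicular libraries were 15.4 to 17.4 FPKM. Both libraries are among the 4 of highest smooth muscle score, and its part in these values was not tested.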

How the results depend on the processing

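The sample titles do not say whether replicate numbers pair the ewes. Same-numbered libraries correlated at -0.25 to 0.40 in 18 pairs, 7 of them over 0.1, and 6 of 12 libraries correlated best with their own number. Differently numbered libraries correlated at -0.51 (ML1 and wL2) to 0.36 (ML3 and wL2). ML2, wF2 and wL2, all among the libraries of highest smooth muscle score, share a number, so the correlations do not decide whether numbers pair ewes. With the number as a replicate block, 0 genes of the set and 55 of all genes were called in MF against ML, 1 gene in MF against wF, and 0 with phases pooled and for the interaction. The ENO2/ENO1 ratio then had an exact p of 0.125 (-1.72).

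For MF against ML, 2 genes of the set were called, and the count was 0 with no filter on low values or with only the 6 libraries compared, 1 with quantile normalisation, and 0 to 2 with 1 library left out. Of all genes 150 were called, and 84 with no filter, 10 with only the 6 libraries, and 1 to 181 with 1 library left out (2 without MF1, 1 without MF2). Of the settings added after the data were seen, the smooth muscle score as a covariate gave 0 genes of the set and 1 of all genes. Leaving out the mitochondrial rows gave 1 of the set. Leaving out the 4 libraries of highest score (ML2, ML3, wF2, wL2) left ML1 alone in ML, so counts of calls that use ML are not given for it. Rescaling to equal FPKM sums gave 369 of all genes, 74 higher and 295 lower, beside 100 higher and 50 lower as deposited and 73 and 71 after quantile normalisation.

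Over all genes, wF against wL gave 1 call with no filter, 2 with only the 6 libraries, 4 without the 4 libraries, and 0 to 2 with 1 left out. MF against wF gave 1 with an added value of 1, with rescaling or with the score, 0 at a mean of at least 1 FPKM or with only the 6 libraries, and 1 to 4 with 1 left out. ML against wL gave 1 with an added value of 1, and 0 to 12 with 1 left out. With genotypes pooled, 1 gene of the set (ENO2) and 172 of all genes were called after rescaling, 1 (ENO2) and 129 with the score, and 5 to 102 of all with 1 left out. With phases pooled the count was 0 with an added value of 1, at a mean of at least 1 FPKM or with the score. It was 2 with no filter and 0 to 2 with 1 left out. For the interaction it was 3 with no filter, 0 at a mean of at least 1 FPKM or with the score, 15 without the 4 libraries, and 0 to 7 with 1 left out. Leaving aside the fit without the 4 libraries, genes of the set called numbered 0 under every setting run in several comparisons. These were the interaction, phases pooled, both genotype comparisons within a phase, and wF against wL.

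In the fit that left out ML2, ML3, wF2 and wL2, FBP1 with phases pooled turned from -0.49 to 0.12 and the HK2/HK1 ratio from 0.62 to -0.36 (exact p = 0.518), ENO2/ENO1 was -0.77 (exact p = 0.25), and PYGL/PYGB was -1.03 (exact p = 0.018). With 1 library left out, ENO2/ENO1 ranged from -2.04 to -1.49, PDK4/PDK2 from -1.05 (without wL3, exact p = 0.0022, the smallest possible there) to -0.44, and PDK1/PDK2 from 0.26 to 0.46. ENO2 lost its MF against ML call in 9 and GYS1 in 13 of 16 alternatives, PGM1 with genotypes pooled fell short of the adjusted p in 14 of 21, the replicate block included (0.66, adjusted p = 0.064), and no alternative turned the direction of these. The causes were not tested.

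FPKM hold no counts, so the number of fragments behind a single low value is not known here. There were 3 ewes in each group. The 11 listed genes without a paired row, among them both lactate dehydrogenases, were not analysed here.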
